A study of Homo sapiens with 2 samples.

Results

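The translation initiation and elongation factors described here are the genes whose symbols begin with EIF or EEF and a digit, apart from EEF1E1 and joined symbols with a hyphen. The rule took 61 of the 11511 genes with values in both libraries, and it used no measured value. The series compared Hep3B, an established human hepatocellular carcinoma line, left untreated (1 library) with Hep3B exposed to 25 µM A4368 for 24 h (1 library). A4368 is a compound known here only by its code, and the sources used here give neither the vehicle nor the time at which control cells were taken. Levels were read as FPKM, which counts fragments relative to transcript length and to all mapped fragments of a library. This allows levels to be compared between genes, whereas ratios between the libraries depend on how these were scaled and are therefore also given after a rescaling. With 1 library a group there was no replicate check, and culture, library and treatment cannot be told apart.

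Translation of most messengers begins when eIF2, loaded with GTP and the initiator tRNA, joins the small ribosomal subunit together with eIF1, eIF1A, eIF3 and eIF5. The eIF4F complex (the cap-binding protein eIF4E, the scaffold eIF4G and the helicase eIF4A) brings in the messenger, and eIF5B admits the large subunit. During elongation eEF1A delivers aminoacyl-tRNA, the eEF1B proteins recharge eEF1A with GTP, and eEF2 moves the ribosome along. Cells slow initiation mainly by phosphorylating eIF2 alpha, which blocks the exchange factor eIF2B, and by letting 4E-BPs bind eIF4E when mTORC1 is inactive. Both switches act on proteins, which RNA-seq does not measure.

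The messengers of this machinery differed little between the libraries. Each gene's log2 ratio was taken as log2((A4368 FPKM + 1)/(control FPKM + 1)), and a log2 ratio of 0.32 in either direction was the limit for naming a difference. Of the 61 factors, 56 lay within that limit. All 61 had means of 1 FPKM or more over both libraries and so belonged to the 11238 genes kept. Past the limit on the higher side with A4368 were 2 factors, EIF5A2 and EIF4EBP2, beside 7.31% of all kept genes. Past it on the lower side were 3, EEF1A2, EIF2S3L and EIF4E, beside 7.79% of all kept genes. A fold is the FPKM of one library divided by that of the other, without the added 1. Where a pair of FPKM values is given, the first is that of the control. In RNA from whole cultures, fewer cells holding a transcript and less of it per cell cannot be told apart.

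A small downward lean was present in the group as a whole. Higher values were found for 19 of the 61, beside 52.0% of all kept genes, and lower values for 42, beside 48.0%. The median log2 ratio was -0.06, against 0.01 over all kept genes. Among all 1884 genes at 50 FPKM or more, 65.6% were lower, with a median of -0.06. Of the 61 factors 33 had means at that level, and factors and genes of like level are compared below. The ratios were also computed after a rescaling that gave the libraries equal sums over all but the 50 most abundant genes. After it 35 factors were lower and 26 higher, beside 39.1% and 60.9% of all kept genes, and 51.9% of the genes at 50 FPKM or more were lower.

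**Figure D1:**
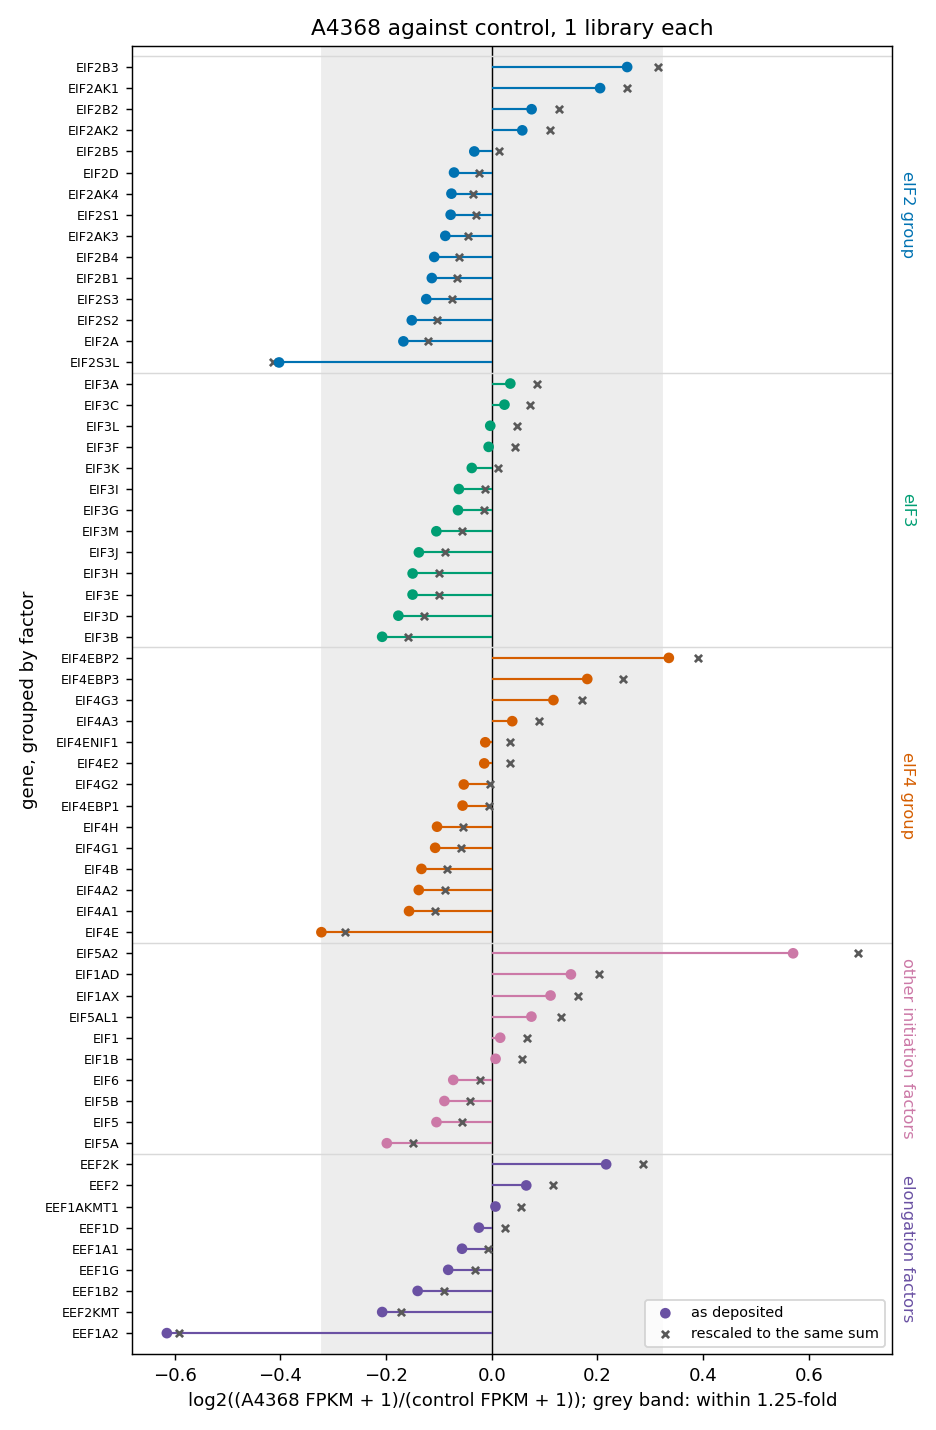
The log2 ratio of A4368 to control (x axis) for each of the 61 genes (y axis), grouped by factor, as deposited (dots) and after the rescaling (crosses). The grey band marks the limit of 0.32, and 5 dots lie outside it, those of EIF2S3L, EIF4EBP2, EIF4E (on the edge), EIF5A2 and EEF1A2. The crosses of 7 genes lie on the other side of 0 from their dots.

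Levels spanned a wide range, from 2.92 FPKM for EIF3C to 2937 FPKM for EEF1A1 in the control. EEF1A1 alone made up 25.3% of the summed FPKM of the 61 genes in the control and 25.6% with A4368. The 23 factors at 100 FPKM or more were the most uniform. Of these 21 were lower and none passed the limit, with a median of -0.08, beside 73.0% of all 921 genes at that level and their median of -0.07. EEF2 and EIF1 were the exceptions. After rescaling 17 of the 23 were lower, beside 58.2% of all genes at that level. Between 20 and 100 FPKM the shares of factors and of all genes lay further apart, a difference that was not tested. There 14 of 20 factors (70.0%) were lower, with a median of -0.08, beside 51.4% of 3447 genes and their median of -0.01. After rescaling 13 of the 20 were lower, beside 40.3% of the genes. At the other end, 7 of the 18 factors with a mean under 20 FPKM were lower, beside 43.0% of all such genes. Across the 61 genes the log2 ratio and the log2 mean had a Spearman rho of -0.33, and across all kept genes it was -0.13. These are descriptions across genes of the same pair of libraries, and the mean and the ratio share the same values.

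**Figure D2:**
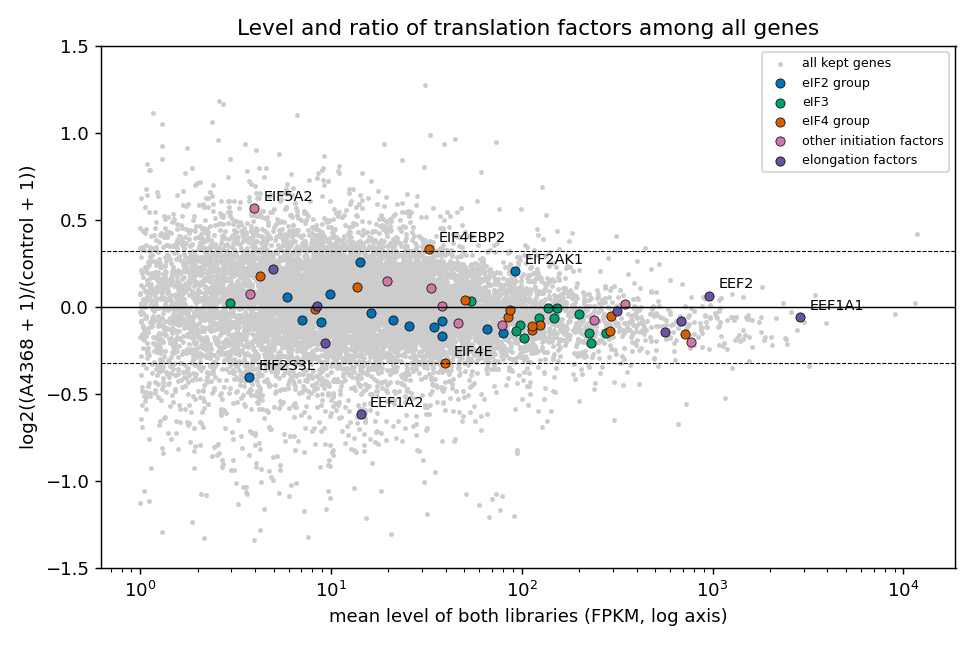
Mean level (x axis, FPKM on a log scale) against the log2 ratio of A4368 to control (y axis) for the 61 factors, coloured by group, over all 11238 kept genes in grey, of which 14 lie outside the plotted range. Dashed lines mark the limit of 0.32. The factors above 100 FPKM lie in a narrow band, mostly just under 0, as the grey points there do.

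The eIF2 group holds 15 genes, namely the subunits of eIF2, those of its exchange factor eIF2B, the kinases that phosphorylate eIF2 alpha, and EIF2A and EIF2D, which encode factors for alternative delivery of the initiator tRNA. Of these 11 were lower and 4 higher, with a median log2 ratio of -0.08, and after rescaling 10 were lower. Among all kept genes 48.0% were lower as deposited and 39.1% after rescaling. At 20 to 100 FPKM these shares were 51.4% and 40.3%. All genes for eIF2 subunits were lower, also after rescaling. EIF2S1, the alpha subunit that carries the regulatory phosphorylation site, was at 39.3 FPKM untreated and 37.2 FPKM treated. EIF2S2, the beta subunit, was at 83.6 and 75.2 FPKM, and EIF2S3, the gamma subunit that binds GTP and tRNA, at 69.0 and 63.2 FPKM. None of these subunits passed the limit. EIF2S3L, a copy of the gamma subunit gene, was at 4.39 and 3.08 FPKM (log2 ratio -0.40). It shares 36.5% of its 31-base words with EIF2S3, so the division of reads between them may not be exact. The sum of both was 73.4 FPKM untreated and 66.3 FPKM treated. Of the 2843 genes with a mean within 2-fold of that of EIF2S3L, 7.0% had a ratio at least as low.

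The subunits of eIF2B, which recharges eIF2 with GTP, did not move together. EIF2B3, the gamma subunit of the catalytic part, was at 12.8 FPKM untreated and 15.5 FPKM treated, the largest ratio of the eIF2 group (log2 ratio 0.26). EIF2B5, the catalytic epsilon subunit that pairs with it, was at 16.5 and 16.1 FPKM. It was lower as deposited and higher after rescaling. Among the regulatory subunits, EIF2B2 was at 9.63 and 10.2 FPKM, whereas EIF2B1, the most abundant, was at 36.2 and 33.4 FPKM, and EIF2B4 was at 26.6 and 24.6 FPKM. The summed FPKM of the eIF2 subunits, without EIF2S3L, was 1.89 times that of the eIF2B subunits in the control and 1.76 times with A4368.

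Of the 4 eIF2 alpha kinases, EIF2AK1 was by far the most abundant. EIF2AK1 encodes HRI, the kinase that responds to heme shortage and mitochondrial stress. It was at 85.9 FPKM untreated and 99.1 FPKM treated (log2 ratio 0.21), which made 79.5% and 82.3% of the summed FPKM of the kinases. Of 1621 genes with a mean within 2-fold of its own, 6.42% had a ratio at least as high. The other kinases were all under 10 FPKM. EIF2AK3 (PERK, activated by unfolded proteins in the endoplasmic reticulum) was at 9.16 and 8.56 FPKM, and EIF2AK4 (GCN2, activated by uncharged tRNA) at 7.22 and 6.80 FPKM. EIF2AK2 (PKR, activated by double-stranded RNA) was at 5.74 and 6.01 FPKM. HRI and PKR were thus higher and PERK and GCN2 lower, all within the limit and with the same sign after rescaling. EIF2A was at 40.4 and 35.9 FPKM and EIF2D at 21.6 and 20.6 FPKM.

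eIF3, the largest initiation factor, bridges the small subunit and eIF4G. Its genes had a median log2 ratio of -0.06, and 11 of 13 were lower, or 8 after rescaling. Beside them, 65.6% of all genes at 50 FPKM or more were lower, or 51.9% after rescaling. At 100 FPKM or more these shares were 73.0% and 58.2%. None of the eIF3 genes passed the limit, and their ratios lay between -0.21 for EIF3B and 0.04 for EIF3A. In the control 12 of the genes were between 53.5 and 291 FPKM, in the order EIF3E, EIF3B, EIF3H, EIF3K, EIF3L, EIF3G, EIF3F, EIF3I, EIF3D, EIF3M, EIF3J and EIF3A. The order was the same with A4368. EIF3E was at 291 FPKM untreated and 262 FPKM treated.

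A split of eIF3 into its octamer core and the other subunits, made after the values were seen, is given as a description. EIF3B, EIF3D, EIF3G, EIF3I and EIF3J form the b-g-i module, the cap-contacting subunit d and the loosely bound subunit j. They had a median of -0.14, and all 5 were lower. All but EIF3J had means above 100 FPKM. Lower values were also found for 65.6% of all genes at 50 FPKM or more and 73.0% of those at 100 FPKM or more. After rescaling these shares were 51.9% and 58.2%, and all 5 were lower, but EIF3G and EIF3I by only 0.01 log2 units. EIF3B, the scaffold of its module, was at 248 FPKM untreated and 215 FPKM treated. EIF3D was at 110 and 96.9 FPKM, and EIF3J at 98.0 and 89.0 FPKM. Of the 8 core subunits 6 were lower, with a median of -0.02, but after rescaling 3 were lower and the median was 0.03. The core counts EIF3C among its higher genes, although the level of EIF3C is uncertain, as described below. Within the core EIF3H and EIF3E had the lowest ratios (log2 ratio -0.15 each), EIF3H being at 236 and 213 FPKM, whereas EIF3L, at 153 FPKM in both libraries, and EIF3F, at 137 FPKM in both, hardly differed. EIF3L shares 51.7% of its words with other genes, so its level is uncertain. EIF3A, the largest subunit, was at 53.5 and 54.8 FPKM. The difference between core and other subunits was not tested.

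EIF3C stood apart in level, at 2.92 FPKM untreated and 2.98 FPKM treated, although its product is a core subunit of the same complex. It shares 48.4% of its 31-base words with other genes, chiefly with its near-identical copy EIF3CL, which was not analysed here. Its level therefore cannot be read as that of a single gene, and whether the copy accounts for the low value was not tested.

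The eIF4 group holds 14 genes for cap-binding proteins, their inhibitors, scaffolds and the eIF4A helicases with their cofactors. Of these 10 were lower and 4 higher, or 8 and 6 after rescaling, with a median log2 ratio of -0.05. Lower values were found for 48.0% of all kept genes, or 39.1% after rescaling. At 50 FPKM or more these shares were 65.6% and 51.9%. The most distinct pair of the group were EIF4E and the gene of an inhibitor of its product, EIF4EBP2. EIF4E, which encodes the protein that binds the messenger cap, was at 44.0 FPKM untreated and 35.0 FPKM treated, 1.26-fold lower. EIF4EBP2, whose unphosphorylated product keeps eIF4E from eIF4G, was at 28.9 FPKM untreated and 36.7 FPKM treated, 1.27-fold higher. Of genes with a mean within 2-fold of each, 5.64% of 3209 were at least as low as EIF4E and 3.89% of 3602 at least as high as EIF4EBP2. EIF4E sat on the limit (log2 ratio -0.32) and no longer passed it after rescaling (-0.28). EIF4EBP2 passed under both scalings (0.34 and 0.39).

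The other genes for 4E-BPs and cap-binding proteins differed less. EIF4EBP1, the most abundant 4E-BP here and the best known substrate of mTORC1, was at 86.6 FPKM untreated and 83.3 FPKM treated. EIF4EBP3 was at 3.89 and 4.55 FPKM. It shares 72.6% of its words with transcripts that read through from ANKHD1, which was itself at 26.3 and 29.5 FPKM, so its level is uncertain. EIF4E2, which encodes the cap-binding protein 4EHP and is linked to repression, was at 87.4 and 86.5 FPKM, above EIF4E in both libraries. EIF4ENIF1, the eIF4E transporter gene, was at 8.26 and 8.18 FPKM. The summed FPKM of the genes for 4E-BPs was 119 in the control and 125 with A4368, a ratio of 1.04. Relative to EIF4E, which was itself lower with A4368, that sum was 2.71 in the control and 3.56 with A4368. EIF4EBP2 alone went from 0.66 to 1.05 times the level of EIF4E, and EIF4EBP1 from 1.97 to 2.38 times. Ratios within a library do not depend on how the libraries were scaled, but these all carry the lower value of EIF4E.

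**Figure D3:**
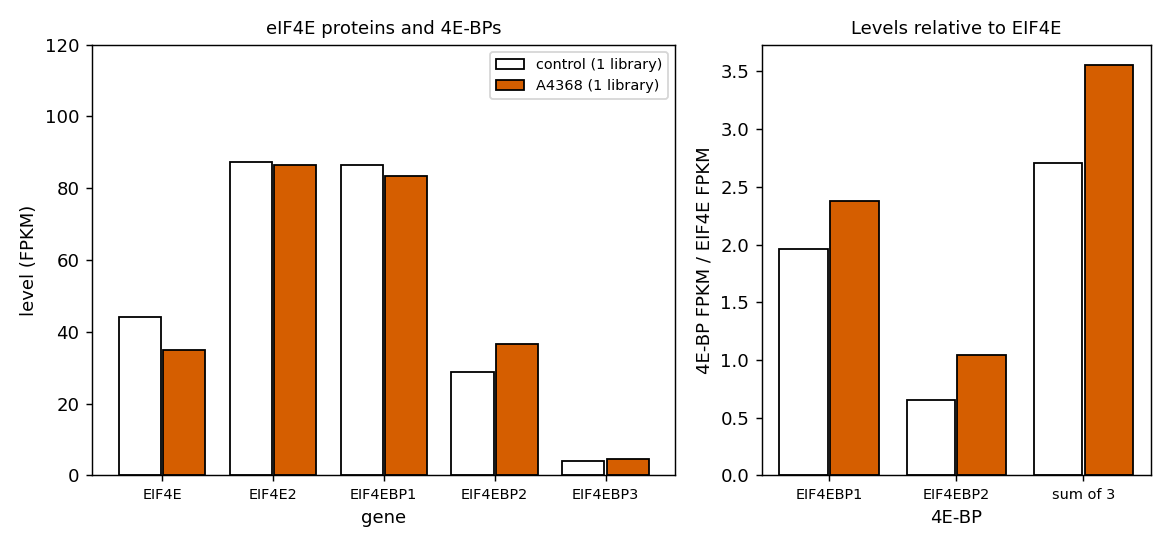
Left, FPKM (y axis) of EIF4E, EIF4E2 and the genes for 4E-BPs in the control (white bars) and with A4368 (filled bars), 1 library each. Right, FPKM of EIF4EBP1, of EIF4EBP2 and of the sum of all 3 genes for 4E-BPs divided by that of EIF4E, where each filled bar stands above its white bar (2.71 and 3.56 for the sum).

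The promoters of EIF4E and EIF4EBP2 are shown because these genes lay on opposite sides. The 250 bases before each RefSeq gene start on GRCh38.p14 are printed 5′ to 3′ on the gene's strand, and capitals mark the words CACGTG (the E-box, bound by MYC and related factors), CCAAT (bound by NF-Y) and GGGCGG (the GC box, bound by SP1), searched on both strands.
EIF4E: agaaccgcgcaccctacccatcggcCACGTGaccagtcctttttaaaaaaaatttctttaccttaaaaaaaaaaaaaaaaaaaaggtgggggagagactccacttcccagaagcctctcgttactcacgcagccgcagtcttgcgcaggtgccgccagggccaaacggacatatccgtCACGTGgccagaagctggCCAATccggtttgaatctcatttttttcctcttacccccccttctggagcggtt
EIF4EBP2: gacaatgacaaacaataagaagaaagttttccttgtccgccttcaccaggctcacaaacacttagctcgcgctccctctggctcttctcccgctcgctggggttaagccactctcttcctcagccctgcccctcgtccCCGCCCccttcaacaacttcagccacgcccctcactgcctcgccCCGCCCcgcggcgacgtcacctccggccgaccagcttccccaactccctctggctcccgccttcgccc
The EIF4E window lies at chr4:98929134-98929383 on the minus strand, has 50.4% G or C, and holds 2 E-boxes, at bases -225 to -220 and -72 to -67 from the start, and 1 CCAAT box. The EIF4EBP2 window lies at chr10:70403895-70404144 on the plus strand, has 63.2% G or C, and holds 2 GC boxes and neither of the other words. Of 9295 kept genes with a RefSeq window 9.22% held an E-box, 35.8% a CCAAT box and 68.5% a GC box.

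E-boxes were frequent among the factors. Windows were matched for 49 of the 61 genes, and 13 of them (26.5%) held an E-box, namely EEF2K, EIF1B, EIF2AK2, EIF2B3, EIF3F, EIF3K, EIF4A3, EIF4B, EIF4E, EIF4EBP3, EIF4G1, EIF4H and EIF5A2. Of these 13, EIF4E, EIF4G1 and EIF5A2 held 2. The median log2 ratio was 0.01 for the 13 and -0.08 for the other 36. Higher values were found for 7 of the 13 and 9 of the 36, beside 52.0% of all kept genes. Of the 7, EIF5A2, EIF4EBP3, EEF2K, EIF2AK2 and EIF2B3 had means between 3.95 and 14.2 FPKM. Among all genes under 20 FPKM 57.0% were higher. After rescaling EIF3F and EIF3K of the 13, and EIF2B5, EIF4E2 and EIF4ENIF1 of the 36, were higher too. The part of level in this difference was not tested. Among all genes the medians with and without an E-box were 0.00 and 0.01. GC boxes (34 of 49) and CCAAT boxes (19 of 49) were about as common as among all genes. The word TGATGNAA, a core of elements bound by ATF4, was in the window of no factor and of 1.32% of all genes. EEF1A2, EEF1AKMT1, EEF1D, EEF2KMT, EIF2AK1, EIF2S2, EIF3A, EIF3E, EIF3G, EIF3H, EIF3L and EIF4EBP1 had no window in the table.

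Most scaffold and helicase genes of eIF4F were slightly lower, also after rescaling. EIF4G1, the main scaffold, was at 117 FPKM untreated and 108 FPKM treated. EIF4G2, whose product lacks the eIF4E-binding part, was at 300.3 and 289 FPKM, and EIF4G3, a minor scaffold, at 13.1 and 14.3 FPKM. EIF4G1 thus went from 8.89 to 7.56 times the level of EIF4G3. EIF4A1, the major helicase, was at 755 and 678 FPKM and its paralog EIF4A2 at 305 and 277 FPKM. The ratio of EIF4A1 to EIF4A2 was nearly constant, at 2.47 and 2.44. EIF4B and EIF4H, which stimulate the helicase, were at 119 and 108 FPKM and at 130 and 121 FPKM. EIF4A1 shares 44.9% and EIF4B 36.3% of their words with other genes, so their levels may not be exact. EIF4A3, whose product is part of the exon junction complex and not of eIF4F, was at 49.8 and 51.2 FPKM. Of these 5 helicase and cofactor genes 4 were lower under both scalings, EIF4A3 being the exception. Beside them, 65.6% of all genes at 50 FPKM or more were lower, or 51.9% after rescaling. At 100 FPKM or more these shares were 73.0% and 58.2%.

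Among the remaining initiation factors, 6 of 10 were higher, beside 52.0% of all kept genes, with a median log2 ratio of 0.01. EIF5A2 had the largest ratio of all 61 genes, at 2.99 FPKM untreated and 4.92 FPKM treated (1.65-fold, log2 ratio 0.57). Its product is the minor form of eIF5A, the hypusine-bearing factor that helps ribosomes past difficult peptide bonds. Of 2928 genes with a mean within 2-fold of its own, 2.05% had a ratio at least as high. The major form went the other way, EIF5A being at 825 and 718 FPKM (log2 ratio -0.20). EIF5A was 276 times as abundant as EIF5A2 in the control and 146 times with A4368. EIF5AL1, a copy of EIF5A that shares 23.5% of its words with other genes, was at 3.62 and 3.87 FPKM.

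The EIF5A2 window, shown for the largest ratio, lies at chr3:170908638-170908887 on the minus strand of GRCh38.p14, with capitals as above.
EIF5A2: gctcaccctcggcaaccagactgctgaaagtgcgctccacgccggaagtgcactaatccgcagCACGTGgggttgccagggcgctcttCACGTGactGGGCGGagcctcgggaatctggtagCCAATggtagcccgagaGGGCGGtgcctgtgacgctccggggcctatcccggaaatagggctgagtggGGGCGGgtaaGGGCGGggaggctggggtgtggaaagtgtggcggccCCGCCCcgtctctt
It has 66.8% G or C and holds 2 E-boxes, at bases -187 to -182 and -162 to -157, 1 CCAAT box and 5 GC boxes. EIF4E and EIF5A2 both carried 2 E-boxes and lay on opposite sides.

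The factors of start codon choice differed little. EIF1, which guards start codon selection, was at 347 FPKM untreated and 351 FPKM treated, and its paralog EIF1B at 38.3 and 38.5 FPKM. EIF1AX, which encodes eIF1A, was at 32.0 and 34.7 FPKM, and EIF1AD, a related gene, at 18.6 and 20.7 FPKM. EIF5, whose product makes eIF2 hydrolyse its GTP, was lower, at 81.7 and 75.9 FPKM. So were EIF5B, at 48.0 and 45.0 FPKM, and EIF6, which keeps the ribosomal subunits apart, at 244 and 232 FPKM. All 10 of these genes kept their sign after rescaling.

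Elongation factor genes had a median log2 ratio of -0.06, with 6 of 9 lower, or 5 after rescaling. Among all kept genes 48.0% were lower, or 39.1% after rescaling. At 100 FPKM or more these shares were 73.0% and 58.2%. EEF1A2 had the lowest ratio of the 61 genes, at 17.6 FPKM untreated and 11.1 FPKM treated (1.58-fold lower, log2 ratio -0.61). It encodes the form of eEF1A normally restricted to muscle and nerve cells and is known to be switched on in some tumours. Of 4612 genes with a mean within 2-fold of its own, 1.60% had a ratio at least as low. The ubiquitous form hardly differed, EEF1A1 being at 2937 and 2825 FPKM, so that it was 167 times as abundant as EEF1A2 in the control and 254 times with A4368.

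The partners of eEF1A were also slightly lower, EEF1D only as deposited. The eEF1B complex that recharges it is encoded by EEF1B2 (590.3 and 536 FPKM), EEF1G (707 and 667 FPKM) and EEF1D (318 and 313 FPKM). EEF1G shares 97.8% of its words with other annotated transcripts, chiefly a transcript at the same locus, so its level depends on how reads were divided. EEF1B2 shares 39.0% and EEF1D 33.0% of their words with other genes. EEF2 was higher with A4368, at 942 FPKM untreated and 986 FPKM treated (log2 ratio 0.07). Of 132 genes with a mean within 2-fold of its own, 4.55% had a ratio at least as high. The ratio of EEF1A1 to EEF2 went from 3.12 to 2.87. EEF2K, which encodes the kinase that inactivates eEF2 when energy is short, was at 4.50 and 5.39 FPKM (log2 ratio 0.22). The methyltransferase genes EEF2KMT and EEF1AKMT1, whose products modify eEF2 and eEF1A, were at 10.0 and 8.53 FPKM and at 8.45 and 8.50 FPKM. EEF2KMT shares 61.8% of its words with other genes.

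**Figure D4:**
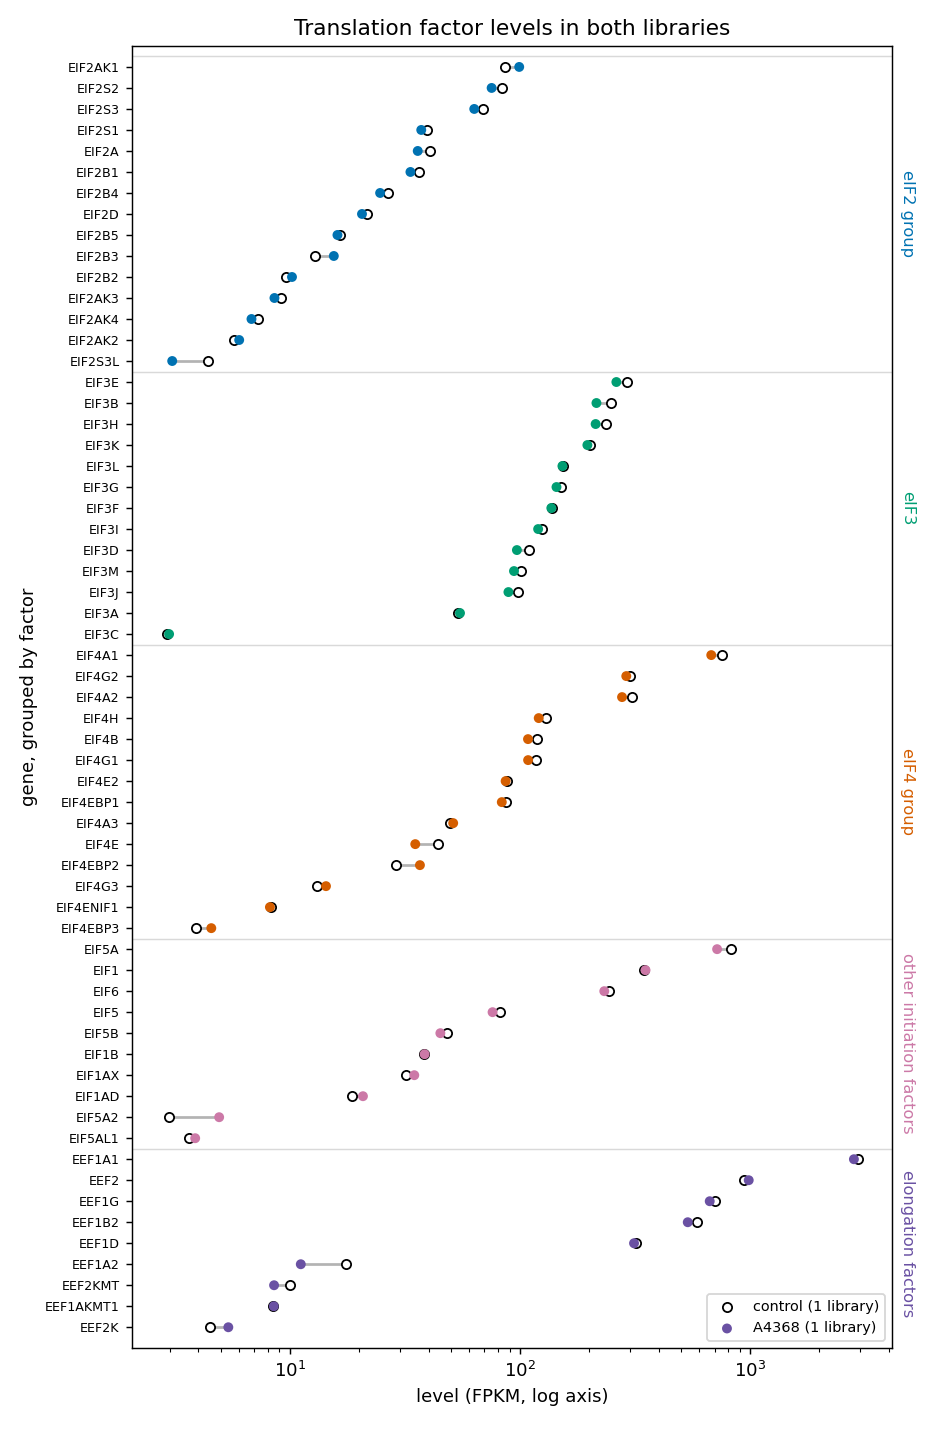
FPKM on a log axis (x axis) of each of the 61 genes (y axis) in the control (open circles) and with A4368 (filled circles), 1 library each, ordered by mean within each group. Most pairs of circles touch or overlap, and EIF2S3L, EIF5A2 and EEF1A2 show the widest gaps.

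Messengers of several of these factors begin with a 5′ TOP tract, a run of pyrimidines that places their translation under mTORC1 and LARP1. The RefSeq table also holds the first transcribed bases after each gene start, which are not printed here. The tract was read there as a C at the first transcribed base followed by at least 4 bases that are C or T. It was found in 12 of the 49 factors with a window (24.5%) and in 5.59% of all 9295 genes. The 12 were EEF1A1, EEF2, EIF2A, EIF2D, EIF2S3, EIF2S3L, EIF3D, EIF3F, EIF3K, EIF3M, EIF4A2 and EIF4B. Of these 11 were lower, EEF2 being the exception, with a median log2 ratio of -0.11. The other 37 factors had a median of -0.05, and 22 of them were lower. Beside these counts, 65.6% of all genes at 50 FPKM or more and 73.0% of those at 100 FPKM or more were lower. Only the first listed start of each gene was read, so a tract at another start would be missed. EIF2S3L, read from the window of EIF2S3B, shares 36.5% of its words with EIF2S3, which is also among the 12. The 12 were more abundant, with a median mean level of 108 FPKM against 38.2 FPKM. Over all genes the medians were -0.03 with the tract and 0.01 without it. After rescaling EIF3F and EIF3K of the 12, and EIF2B5, EIF4E2 and EIF4ENIF1 of the 37, were higher too. On that scale 51.9% of all genes at 50 FPKM or more and 58.2% of those at 100 FPKM or more were lower. The part of level in this difference was not tested.

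Genes that act with the factors were grouped in 7 lists. The SD of the log2 ratio was between 0.08 and 0.27 in these lists, beside 0.17 for the factors and 0.26 for all kept genes. Counts in the lists stand beside 52.0% of all kept genes higher as deposited and 60.9% after rescaling, with 7.31% past the limit on the higher side and 7.79% on the lower. In the list of mTORC1, its regulators and the kinases that act on eIF4F, 14 of 17 were higher, or 15 after rescaling. The median log2 ratio was 0.11, and 3 were past the limit on the higher side. This list, chosen with earlier results of these data known, had a median control level of 18.9 FPKM. Among all genes under 20 FPKM 57.0% were higher, or 64.1% after rescaling. DDIT4, which encodes the mTORC1 inhibitor REDD1, was at 49.7 FPKM untreated and 96.9 FPKM treated. RPS6KA1, a kinase gene downstream of ERK, was at 4.10 and 6.84 FPKM. TSC2, whose product restrains mTORC1 through RHEB, was at 8.35 and 12.3 FPKM, and its partner TSC1 at 5.10 and 6.40 FPKM lay within the limit. MTOR and RPTOR themselves were at 14.8 and 14.5 FPKM and at 14.4 and 15.0 FPKM. MKNK2, a kinase gene acting on eIF4E, was at 56.1 and 67.0 FPKM.

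The regulators of eIF2 dephosphorylation and of GCN2 had a median of 0.07, with 8 of 12 higher and 9 after rescaling. The outlying member was PPP1R15A, the inducible GADD34 subunit that directs phosphatase to eIF2 alpha, at 17.9 FPKM untreated and 12.8 FPKM treated. PPP1CA, a catalytic subunit of that phosphatase and the most abundant gene of the list, was at 262 and 282 FPKM. The constitutive counterpart of PPP1R15A, PPP1R15B, was at 25.0 and 25.9 FPKM. The poly(A)-binding proteins and associated factors had the lowest median, -0.15, with 6 of 7 lower, or 4 after rescaling, and none past the limit. PABPC1, which closes the messenger loop by binding eIF4G, was at 278 and 269 FPKM. LARP4 was at 41.6 and 35.2 FPKM and LARP1, which binds the TOP tract, at 43.4 and 42.6 FPKM.

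In the other lists few genes stood out. Other initiation and reinitiation factors had a median of -0.05, with 4 of 10 higher, and the member past the limit, DHX29, which encodes a helicase for structured leaders, was at 9.24 and 11.9 FPKM. BZW2, which encodes an eIF5 mimic and is the most abundant gene of that list, had its lowest ratio, at 138 and 112 FPKM (log2 ratio -0.30). Genes of hypusine and diphthamide synthesis, which modify eIF5A and eEF2, had a median of -0.02, with 4 of 9 higher. Of these DNAJC24, a diphthamide synthesis gene and the member past the limit, was at 6.66 and 9.51 FPKM. DPH5, of the same pathway, lay just inside the limit on the lower side, at 15.3 and 12.1 FPKM, whereas DHPS, which starts hypusine synthesis, was at 43.9 and 41.0 FPKM. Termination and rescue factors had a median of -0.05, with 3 of 8 higher and none past the limit, GSPT1 (eRF3a) being at 123 and 113 FPKM. Mitochondrial translation factors had a median of -0.01, with 4 of 10 higher, or 7 after rescaling, and none past the limit, the elongation factor gene TUFM being at 176 and 186 FPKM.

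**Figure D5:**
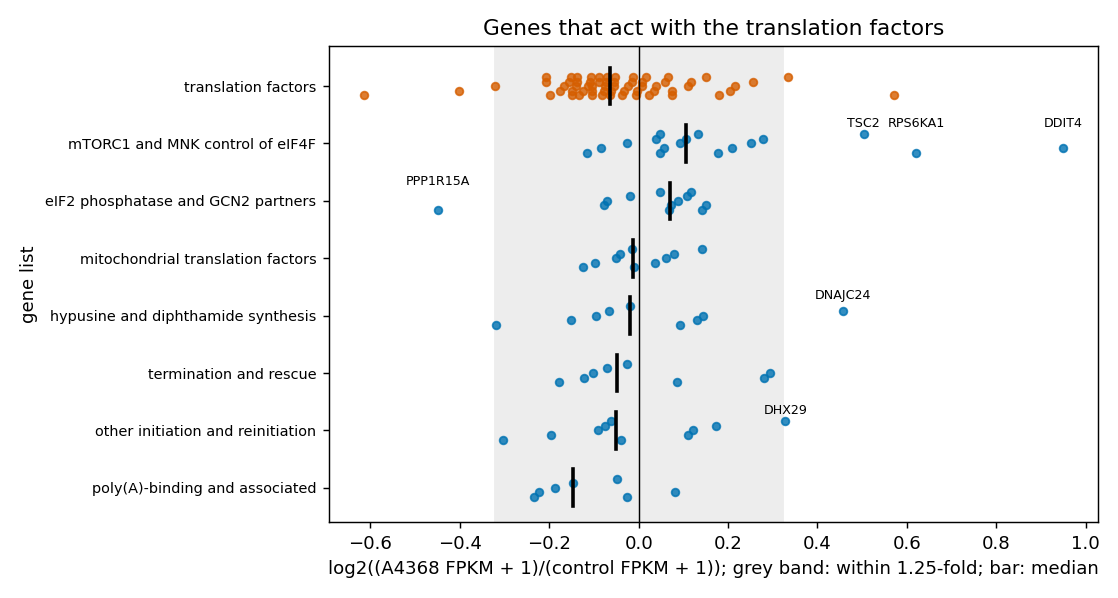
The log2 ratio of A4368 to control (x axis) for the genes of 7 lists that act with the factors (blue) and for the 61 factors (orange), 1 point a gene, with the median as a bar and the limit of 0.32 as a grey band. The genes outside the band are named for the lists, and the mTORC1 list has 3 of them on the right, DDIT4, RPS6KA1 and TSC2.

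The cells carried the markers of their label. All 8 hepatocyte markers had values, from 55.4 to 9183 FPKM. Of 14 markers of leukocytes, endothelium and fibroblasts 3 had values, CD68, LYZ and LUM, between 9.48 and 30.0 FPKM. Among 3 common reference genes, GAPDH and RPLP0 lay within the limit, whereas ACTB was at 3593 and 2847 FPKM (log2 ratio -0.34, or -0.29 after rescaling). The depth of the libraries is unknown, since the files give FPKM alone.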

How the data were processed

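RNA-seq of Hep3B cells was deposited by the authors as 1 table with 2 value columns, 1 per library, and no unit in its header. The build hg19, Cufflinks, Bowtie2 2.2.3 and TopHat2 2.0.12 appear in the submitters' processing notes, and the deposited values are not whole numbers, so they were read as FPKM. Both values were present in 11511 of 24302 lines. No mean was under 0.496 FPKM, and the rule behind that is not given in the sources used here. FPKM carry no counts, so no interval or detection limit was computed.

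Ratios were log2((A4368 + 1)/(control + 1)), which understates changes of low genes. The filter kept 11238 genes whose mean reached 1 FPKM and removed 273. With 1 library per group no test was run, and a ratio of 1.25-fold on that scale (0.32 log2 units) served as the limit. The 61 genes, the groups by symbol and the related lists were chosen with earlier results of these data known. Values were given for the factors and, of each list, for genes past the limit or, where none was, the most abundant. The split of eIF3 into core and other subunits, the motif searches and some genes named in the lists were chosen after values were seen. Alternatives were pseudocounts of 0.1 and 5, no filter or one at 5 FPKM, centring, rescaling without the 50 highest genes, a 1.5-fold limit and means.

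For shared sequence, the different 31-base words of a gene's transcripts (GENCODE release 29, strands pooled) were counted, and the share that also occurs in another gene's transcripts is given as a percentage. Promoter windows came from the RefSeq table (GRCh38.p14), with the first listed window of each gene, and were not used with coordinates of the files. The ratio and limit steps were tested on simulated data in which the planted changes lay well past the limit. That check therefore does not bear on differences as small as most of those reported here. Python 3.11.15, numpy 2.4.6, pandas 2.3.3, scipy 1.17.1 and matplotlib 3.10.9 were used.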

Additional observations from a re-analysis of the deposited data

How the results depend on the processing

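How many factors passed the limit changed with the weight of low values. Adding 5 in place of 1 left 0 factors past it on the higher side and 1 on the lower, and a filter at 5 FPKM left 1 and 2 among 55 of the 61. A limit of 1.5-fold left 0 higher and 1 lower on the log2 scale with a pseudocount of 1, EEF1A2. EIF4E dropped out of the lower set after centring and after rescaling, so that 2 remained in each. After rescaling 11.8% of all kept genes passed the limit on the higher side and 7.10% on the lower. Rescaling multiplied control values by 2.32 and A4368 values by 2.40 before 1 was added, so the added 1 weighed less on low genes. A pseudocount of 0.1 without rescaling gave 9.90% on the higher side and 9.80% on the lower. The median of the remaining initiation factors turned from 0.01 to -0.033 under the filter at 5 FPKM, where EIF5A2 and EIF5AL1 are left out. Rescaling moved the median ratio of all kept genes by 0.05 log2 units and changed the sign of 7 factors, EEF1D, EIF2B5, EIF3F, EIF3K, EIF3L, EIF4E2 and EIF4ENIF1. Centring changed that of EIF3L, and neither pseudocount changed a sign. Leaving out the 4 factors that share at least 50% of their sequence, chosen after seeing the data, left the counts within 1.5 times and the medians within 0.1 log2 units of those reported. No paired analysis was possible because each group has 1 library. The depth is unknown, and with 1 culture of each kind a difference of the size seen for most factors cannot be set against the spread between cultures.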
